A study of Arabidopsis thaliana with 24 samples.

Results

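The chitin response of the *Arabidopsis thaliana* mutant *atl9* was described from 8 of the 24 arrays of the series. They were the 4 arrays of chitin-treated *atl9* seedlings and the 4 arrays of mock-treated *atl9* seedlings, chosen by their titles. The mutant, called rre1-1 in the labels, is 1 T-DNA insertion line with a disrupted gene for the RING protein ATL9, and both groups carry the insertion. Liquid cultures of whole seedlings, 14 days old, received chitin from crab shell at 100 mg/L or a mock treatment for 30 min. The other arrays were 4 of chitin-treated and 4 of mock-treated Col-0, the wild type, and 4 and 4 of rre2, an insertion line in a related RING gene, under the same treatments. The titles and source names of the chitin-treated Col-0 samples give chitin, while their description calls them untreated, and the titles were followed, so that each comparison with Col-0 rests on them. RNA was hybridized to ATH1 arrays, on which a probe set reads the transcript of a gene. Each signal was divided by the median signal of its array, and values below are given as this relative signal or as log2 differences. Probe sets of highest mean over the 24 arrays were tested, of which 9006 matched 1 gene, 341 matched several genes and 7183 were not listed in the annotation used here, so that named genes cover a part of the response. The gene disrupted in *atl9* itself is not analysed here.

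Chitin is a polymer of fungal cell walls that plants perceive through receptor kinases with LysM domains. Perception is followed within minutes by calcium influx, an oxidative burst and the activation of MAP kinases, and then by a wave of transcripts for transcription factors, kinases and ubiquitin ligases. ATL9 belongs to a family of membrane-bound RING ubiquitin ligases of plants, several members of which are known as early elicitor-responsive genes.

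The replicates of a group resembled each other closely. Log2 relative signals of the tested probe sets correlated between replicate arrays at 0.948 to 0.975 among the chitin-treated and at 0.958 to 0.974 among the mock-treated *atl9* arrays, and the median SD within a group was 0.24. Seedlings hold both shoot and root, and genes of both were read. The Rubisco activase gene *RCA*, a leaf gene, averaged 48.7 ± 13.2 in chitin-treated and 35.3 ± 1.74 in mock-treated *atl9* (SD, n = 4 each), and the root myrosinase gene *PYK10* averaged 96.3 ± 6.62 in chitin-treated and 84.2 ± 6.17 in mock-treated *atl9* (SD, n = 4 each). Of the 7 leaf markers 4 were tested, with a summed relative signal of 92.0 to 175 on chitin arrays and 109 to 125 on mock arrays. Their log2 changes were mixed, at 0.43 for *RCA*, 0.38 for *PSAN*, 0.11 for *LHCB4.1* and -0.24 for *LHCB4.2*. Of the 9 root markers 2 were tested, with sums of 99.4 to 114 on chitin arrays and 87.6 to 103 on mock arrays. None of these 6 genes changed at an adjusted p under 0.05. In whole seedlings, fewer cells of a type and less RNA per cell cannot be told apart.

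After 30 min of chitin, 1251 probe sets were higher and 494 were lower in *atl9* (limma, adjusted p under 0.05), which is 7.57% and 2.99% of the probe sets tested. The median change was 1.09 on the log2 scale among the rises and -0.79 among the falls, against 0.006 over all probe sets. At least 2-fold rises numbered 699, at least 4-fold 256, at least 8-fold 89 and at least 16-fold 31. At least 2-fold falls numbered 133, and at least 4-fold falls 11. On 1615 probe sets (9.77%) every chitin array lay above every mock array, and on 880 (5.32%) every chitin array lay below. Of the called rises 1179 were separated in this way, and of the called falls 437. Single genes matched 665 of the rises and 255 of the falls.

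**Figure D1:**
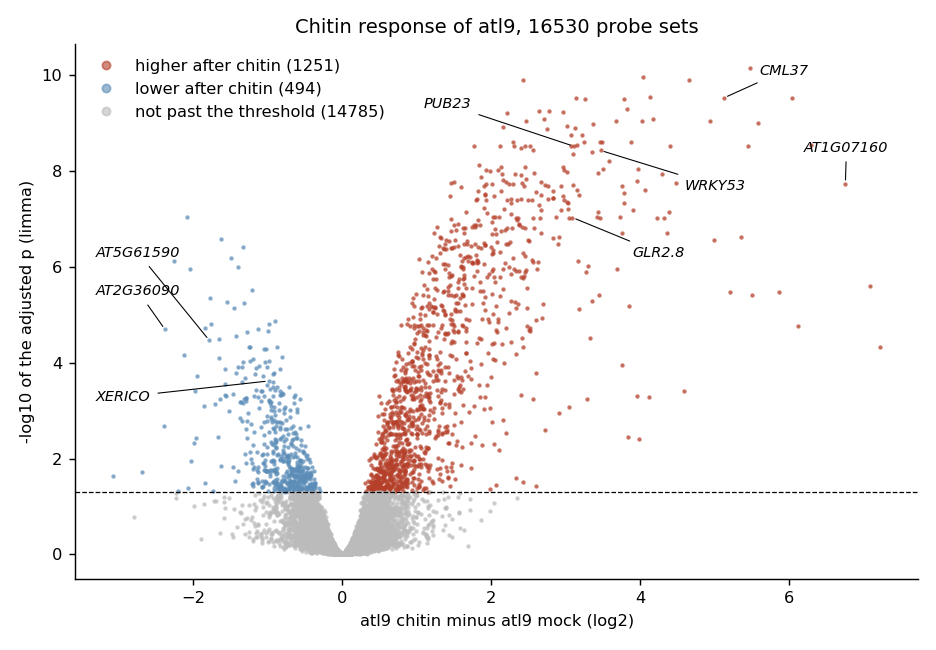
Chitin response of *atl9* over all probe sets tested. The horizontal axis gives the log2 difference of chitin-treated minus mock-treated *atl9* (4 arrays each), the vertical axis -log10 of limma's adjusted p, and the dashed line the threshold of 0.05. The 1251 rises reached further from 0, up to 7.22, than the 494 falls, which reached -3.07.

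The balance of rises and falls rested on the scaling between arrays. The array median of the deposited signals was lower on the chitin arrays, at 150.45 to 168.0 units, than on the mock arrays, at 172.9 to 185.2 units, and the groups did not overlap (two-sided exact permutation test, p = 0.0286, the smallest that 4 against 4 arrays allow). With signals as deposited, without division by the array median, 1005 probe sets rose and 1671 fell, and the median of all probe sets moved to -0.16. With quantile normalization 1132 rose and 1130 fell, with a median of -0.08. Rises made up 71.7% of the calls after division by the median, 37.6% as deposited and 50.0% after quantile normalization. The calls themselves were largely shared, since 978 of the 1251 rises and 443 of the 494 falls were also called in the same direction as deposited, after quantile normalization and with an offset of 32 units before the log.

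The largest rises were mostly of genes whose mock signal lay below the array median. *AT1G07160* was at 13.1, 15.9, 15.8 and 15.2 in chitin-treated *atl9* and at 0.294, 0.223, 0.156 and 0.0364 in mock-treated *atl9*, a log2 difference of 6.75 ± 0.43 (SE). *AT4G18540* had the largest difference among probe sets of 1 gene with separate groups, 7.09 ± 0.71 (SE), with 2.5, 5.72, 2.98 and 3.55 in chitin-treated *atl9*, against 0.0185, 0.0191, 0.0113 and 0.11 in mock-treated *atl9*. *CML37* (AT5G42380), which encodes a calmodulin-like calcium sensor, was at 20, 26.7, 23.9 and 28.6 in chitin-treated *atl9* and at 0.979, 0.675, 0.53 and 0.701 in mock-treated *atl9*. In all 3 genes the chitin arrays were many times above the mock arrays, and the spread among mock arrays was wide for the first pair. *AT3G02840* reached 34.3, 44.5, 38.9 and 41.9 in chitin-treated *atl9*, against 1.34, 0.645, 0.815 and 0.677 in mock-treated *atl9*, and *AT4G28460* reached 35.5, 36.3, 33.5 and 43.5 in chitin-treated *atl9*, against 1.4, 1.64, 0.766 and 1.05 in mock-treated *atl9*. The other 5 of the 10 largest rises were *AT1G22810*, *AT4G04480*, *AT5G37490*, *AT3G12910* and *AT2G36440*, with log2 differences of 5.87, 5.5, 5.45, 5.35 and 5.2. All 10 had adjusted p-values of 3.83e-06 or less (limma). In 9 of the 10 the mock mean lay below the array median. With an offset of 32 units before the log the 10 differences ranged between 3.73 and 5.47, and 7 of them shrank by more than 1.5 times on the linear scale.

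**Figure D2:**
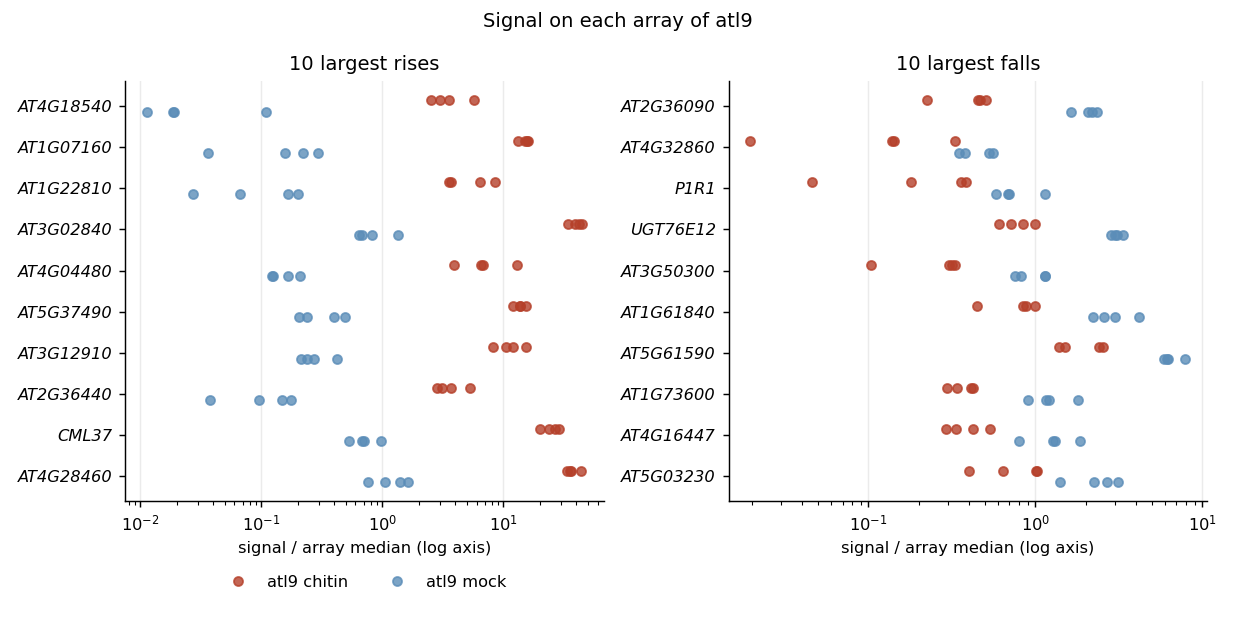
Signal on each of the 8 *atl9* arrays for the 10 largest rises (left) and the 10 largest falls (right) among called probe sets that match 1 gene and have separate groups. Each dot is 1 array, chitin above and mock below in each row, and the horizontal axis gives signal divided by the array median on a log axis. Mock values of the rises lie between 0.0113 and 1.64, and chitin values between 2.50 and 44.5.

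The falls were shallower. *AT2G36090* fell to 0.467, 0.225, 0.455 and 0.504 in chitin-treated *atl9*, against 1.64, 2.33, 2.19 and 2.08 in mock-treated *atl9*, a log2 difference of -2.38 ± 0.29 (SE) (limma, adjusted p = 2.04e-05). *DEWAX* (AT5G61590), a transcription factor that represses wax synthesis, was at 2.42, 1.38, 1.5 and 2.55 in chitin-treated *atl9* and at 7.94, 5.92, 6.13 and 6.2 in mock-treated *atl9*, a difference of -1.78 ± 0.23 (SE). The glycosyltransferase gene *UGT76E12* (AT3G46660) was at 0.714, 0.606, 0.991 and 0.847 in chitin-treated *atl9*, against 2.83, 3.01, 3.35 and 3.08 in mock-treated *atl9*. The groups of all 3 genes were apart, with every chitin array below every mock array. *AT1G61840* was at 0.875, 0.847, 0.999 and 0.445 in chitin-treated *atl9* and at 4.2, 2.23, 2.58 and 3 in mock-treated *atl9*. *AT4G32860*, *P1R1* (AT5G57780), *AT3G50300*, *AT1G73600*, *AT4G16447* and *AT5G03230* fell by 2.06, 2.02, 1.98, 1.76, 1.7 and 1.66 on the log2 scale. With the offset of 32 units the 10 differences lay between -1.88 and -0.88. *AT4G32860* was dim in both groups, its smallest chitin value was 0.0196, and its call was lost without any 1 of 12 arrays, which were all of *atl9* and Col-0 except *atl9* chitin replicate 2, Col-0 chitin replicate 2 and Col-0 mock replicates 2 and 3 (adjusted p up to 0.104).

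Of 24 listed genes of elicitor perception 4 were tested, with a median change of 0.41. Among the 4, 2 rose (50.0%) and 0 fell, beside 7.57% that rose and 2.99% that fell over all probe sets. *BIK1* (AT2G39660), a cytoplasmic kinase that acts with pattern receptors, was at 17.6, 13.4, 14 and 13.1 in chitin-treated *atl9* and at 8.12, 8.68, 8.06 and 7.43 in mock-treated *atl9*, a log2 difference of 0.84 ± 0.12 (SE). *FER* (AT3G51550), the receptor kinase FERONIA that binds RALF peptides, was at 25.6, 27.6, 27.8 and 26.9 in chitin-treated *atl9*, against 20.6, 21.9, 20.3 and 20.9 in mock-treated *atl9*, and rose by 0.37 ± 0.09 (SE) (limma, adjusted p = 0.011). Both genes had separate groups, although the *FER* change was small and was not called as deposited (adjusted p = 0.0954) or after quantile normalization (adjusted p = 0.519). *EFR*, the receptor of bacterial elongation factor, and *SD1-29* had differences of 0.45 and 0.32 and were not called. *B120* (AT4G21390), a receptor-like kinase gene that was picked after its values were seen, was at 17.1, 22.3, 16.6 and 16.6 in chitin-treated *atl9* and at 3.94, 4.22, 4.09 and 3.71 in mock-treated *atl9*, and *PTI1-4* (AT2G47060), a kinase gene picked likewise, was at 10.1, 12.1, 9.91 and 10.9 in chitin-treated *atl9* and at 5.96, 4.77, 5.06 and 5.24 in mock-treated *atl9*. Of 7 tested genes of RALF peptides, a family picked after its values were seen, 1 rose (14.3%) and 1 fell (14.3%). *RALFL33* rose by 0.71 ± 0.14 (SE) and *RALFL34* fell by 0.40 ± 0.10 (SE). The *RALFL34* call was lost without chitin replicate 1 or chitin replicate 3 of *atl9* (adjusted p up to 0.0554), and that of *RALFL33* after quantile normalization (adjusted p = 0.0861).

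Several genes of calcium signalling were among the rises. Of 8 tested genes for calmodulin-like and EF-hand proteins, 4 rose (50.0%, beside 7.57% of all probe sets) and 0 fell, with a median of 0.83 against 0.006 over all probe sets. Beside *CML37*, *CML42* (AT4G20780) was at 25.2, 47, 32.4 and 29.3 in chitin-treated *atl9* and at 12.1, 5.72, 6.58 and 8.2 in mock-treated *atl9*. *CML38* (AT1G76650) was at 12, 15.6, 14.8 and 12.3 in chitin-treated *atl9* and at 9.28, 2.33, 2.29 and 5.63 in mock-treated *atl9*, where replicate 1 was highest and came close to the chitin arrays. *CML23* rose by 0.92 ± 0.19 (SE), and *CML43* had a difference of -0.74 that was not called (limma, adjusted p = 0.0955). Glutamate receptor-like proteins are cation channels of the plasma membrane, and 3 of the 8 tested rose (37.5%, beside 7.57% of all probe sets), with none that fell. The median change of these 8 was 0.02. *GLR2.8* (AT2G29110) was at 2.7, 1.89, 2.8 and 1.71 in chitin-treated *atl9* and at 0.176, 0.291, 0.368 and 0.246 in mock-treated *atl9*, a difference of 3.09 ± 0.23 (SE). *ATGLR1.2* rose by 1.16 ± 0.25 (SE). *GLR2.9* rose by 2.42 ± 0.68 (SE) and, with chitin values of 0.986, 0.631, 0.871 and 0.714, stayed below the array median. Its call was lost without chitin replicate 1, 3 or 4 or mock replicate 3 or 4 of *atl9* (adjusted p up to 0.106), and the offset of 32 units lowered its difference to 1.51. The glutamate receptor family was picked after its values were seen.

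Transcription factors known from early defence were also among the rises. Of 6 tested WRKY genes 3 rose (50.0%, beside 7.57% of all probe sets) and 0 fell, with a median of 0.67. *WRKY53* (AT4G23810) was at 50.7, 45.3, 45.5 and 50.4 in chitin-treated *atl9* and at 5.09, 4.01, 3.27 and 5.26 in mock-treated *atl9*, a log2 difference of 3.47 ± 0.19 (SE). *WRKY22* (AT4G01250), known as a target of the flagellin MAP kinase cascade, was at 7.89, 12.2, 10.6 and 9.72 in chitin-treated *atl9* and at 1.3, 1.03, 1.38 and 1.4 in mock-treated *atl9*. *WRKY6* was at 10.9, 11.9, 11.5 and 11.8 in chitin-treated *atl9* and at 4.02, 4.5, 4.85 and 4.49 in mock-treated *atl9*, a tighter pair of groups with a difference of 1.37 ± 0.12 (SE). *ZAP1*, another WRKY gene, had -0.35 and was not called. The zinc finger gene *STZ* (AT1G27730) was at 92.4, 125, 105 and 116 in chitin-treated *atl9*, against 21.6, 13, 12.6 and 15.8 in mock-treated *atl9*. *BZIP60* (AT1G42990), a factor of the unfolded protein response, was at 51.5, 72.9, 59.9 and 64.8 in chitin-treated *atl9* and at 26.7, 19.6, 20.6 and 24.1 in mock-treated *atl9*. It was the 1 gene called among 8 tested genes of folding and degradation in the ER. That share of 12.5% stood beside 7.57% that rose over all probe sets, and the median change of the 8 was -0.02. *BZIP28* and *BZIP17*, which also encode membrane-bound factors of stress responses, had differences of 0.41 (limma, adjusted p = 0.0975) and -0.05 (adjusted p = 0.907) and were not called. The jasmonate regulator *ORA47* (AT1G74930) rose by 1.51 ± 0.42 (SE) with groups that overlapped, at 0.558, 2.02, 1.11 and 0.71 in chitin-treated *atl9* and 0.571, 0.19, 0.312 and 0.394 in mock-treated *atl9*, and its call was lost without chitin replicate 2 or 3 or mock replicate 2 or 3 of *atl9* (adjusted p up to 0.0921).

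Of 14 tested genes for U-box and RING ubiquitin ligases, the class of ATL9, 4 rose (28.6%) and 1 fell (7.14%), beside 7.57% that rose and 2.99% that fell over all probe sets, with a median of 0.18. The U-box ligases PUB22, PUB23 and PUB24 are known to dampen responses to microbial patterns. *PUB23* (AT2G35930) was at 38.7, 48.2, 41.3 and 41.5 in chitin-treated *atl9* and at 5.88, 3.78, 4.26 and 6.07 in mock-treated *atl9*. *PUB22* (AT3G52450) was at 14.3, 26.1, 21.3 and 20.5 in chitin-treated *atl9* and at 4.07, 3.49, 2.93 and 3.85 in mock-treated *atl9*, and *PUB24* (AT3G11840) was at 17.7, 27.4, 22.6 and 24.8 in chitin-treated *atl9* and at 6.18, 4.43, 4.53 and 4.77 in mock-treated *atl9*. All chitin arrays of the 3 genes were more than 2-fold above all mock arrays, and the log2 differences were 3.11 ± 0.17 (SE), 2.5 ± 0.21 (SE) and 2.21 ± 0.17 (SE). *ATL5* (AT3G62690), a member of the ATL family, was at 0.704, 1.06, 1.14 and 0.881 in chitin-treated *atl9* and at 0.471, 0.513, 0.484 and 0.553 in mock-treated *atl9*, a difference of 0.88 ± 0.19 (SE) (limma, adjusted p = 0.00489). The gene that fell was *BRH1* (AT3G61460), a RING gene named for its response to brassinosteroids, at 2.45, 2.67, 2.69 and 4.39 in chitin-treated *atl9* and 5.25, 8.34, 6.75 and 5.08 in mock-treated *atl9*. Among genes picked after their values were seen, *XERICO* (AT2G04240), a RING gene that raises abscisic acid levels, was at 2.65, 1.89, 2.99 and 2.62 in chitin-treated *atl9* and at 4.12, 4.9, 5.84 and 5.07 in mock-treated *atl9*. The F-box gene *HWS* (AT3G61590) was at 0.348, 0.568, 0.576 and 0.587 in chitin-treated *atl9* and at 0.992, 1.08, 1.14 and 1.1 in mock-treated *atl9*, and both fell by about the same amount, 0.98 and 1.08 on the log2 scale.

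Genes of vesicles and membranes were picked after their values were seen, as families by name. Tetraspanins are membrane proteins found on exosomes, and 9 were tested. Among the 9, 2 rose (22.2%) and 1 fell (11.1%), beside 7.57% that rose and 2.99% that fell over all probe sets. The median change of the 9 was -0.01. *TET8* (AT2G23810) was at 86.6, 91.2, 87.6 and 94.4 in chitin-treated *atl9*, against 43.2, 35, 35.6 and 40.8 in mock-treated *atl9*, and *TET9* (AT4G30430) was at 1.79, 2.65, 2.54 and 1.69 in chitin-treated *atl9*, against 0.34, 0.568, 0.375 and 0.435 in mock-treated *atl9*. *TET5* fell by 0.69 on the log2 scale, a call that was lost without chitin replicate 1 or 3 or mock replicate 1 or 4 of *atl9* (adjusted p up to 0.0614). ESCRT complexes sort ubiquitinated membrane proteins into multivesicular bodies. Of 14 tested genes for these and other vacuolar sorting proteins, 4 rose (28.6%, beside 7.57% of all probe sets) and 0 fell, in a family picked for its rises, and the median of the 14 was -0.02. *VPS60.1* was at 9.22, 8.94, 10.1 and 8.48 in chitin-treated *atl9* and at 6.34, 4.77, 5.62 and 5.53 in mock-treated *atl9*. *VPS2.1* was at 19.4, 22.1, 21.9 and 20.1 in chitin-treated *atl9* and at 15.6, 12.1, 12.8 and 13.5 in mock-treated *atl9*, and *VPS46.2* was at 13.3, 13.6, 12.4 and 14.7 in chitin-treated *atl9* and at 9.35, 9.62, 9.39 and 8.63 in mock-treated *atl9*. The differences of these ESCRT-III genes were small but larger than the spread of replicates, 0.73 ± 0.14 (SE), 0.63 ± 0.11 (SE) and 0.55 ± 0.11 (SE) (limma, adjusted p = 0.00174, 6.25e-04 and 0.00208). The fourth, *ELC* of the ESCRT-I complex, had 0.49 ± 0.15 (SE) with overlapping groups, and its call was lost without any 1 of 12 arrays, which were all of *atl9* and Col-0 except *atl9* mock replicate 2, Col-0 chitin replicates 1 and 3 and Col-0 mock replicate 2 (adjusted p up to 0.131). The remaining 10 genes, among them *VPS20.1*, *VPS24.1* and *SNF7.1*, had differences between -0.38 and 0.20 and were not called.

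Of 41 tested glycosyltransferase (*UGT*) genes 5 rose (12.2%) and 4 fell (9.76%), beside 7.57% that rose and 2.99% that fell over all probe sets, with a median of -0.08. *UGT71B6* (AT3G21780), which glucosylates abscisic acid, was at 4.15, 5.03, 4.01 and 4.37 in chitin-treated *atl9* and at 1.21, 1.13, 0.795 and 0.995 in mock-treated *atl9*. *UGT73B5* rose by 1.31 ± 0.11 (SE), its neighbour in the family *UGT73B4* by 0.8 ± 0.15 (SE) and *UGT73D1* by 1.29 ± 0.19 (SE). Beside *UGT76E12*, the falls were *UGT76E11*, *UGT84A3* and *UGT71C3*, by 1.03, 1.05 and 1.13 on the log2 scale. Each of these 3 calls was lost without 2 or 3 single arrays of *atl9* (adjusted p up to 0.0645), namely chitin replicate 3 or mock replicate 2 for *UGT76E11*, chitin replicate 2 or mock replicate 1 or 4 for *UGT84A3*, and chitin replicate 1 or 3 or mock replicate 2 for *UGT71C3*. Of 13 tested cytochrome P450 genes 4 rose (30.8%, beside 7.57% of all probe sets) and 0 fell, with a median of -0.07, and 3 of these 4 calls rested on single arrays. *CYP71B5* (AT3G53280) was at 6, 9.92, 7.42 and 8.07 in chitin-treated *atl9* and at 1.87, 2.19, 3.12 and 1.7 in mock-treated *atl9*. *CYP71B22*, *CYP84A4* and *CYP71B6* rose by 0.77, 0.76 and 0.52. Their calls were lost when single *atl9* arrays were left out (adjusted p up to 0.0988, 0.064 and 0.119), which were 4 arrays for *CYP71B22* (chitin replicates 2 and 4, mock replicates 3 and 4), 3 arrays for *CYP84A4* (chitin replicates 3 and 4, mock replicate 1) and, for *CYP71B6*, all *atl9* arrays except chitin replicate 2 and mock replicate 2, beside Col-0 chitin replicate 4 and Col-0 mock replicate 3.

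Several single enzymes with large changes were picked after their values were seen. *DLAH* (AT1G30370), a lipid acylhydrolase, was at 26.6, 37.2, 33.2 and 35.4 in chitin-treated *atl9* and at 2.75, 3.26, 2.91 and 3.01 in mock-treated *atl9*, a log2 difference of 3.46 ± 0.18 (SE) with tight groups. *CCR2* (AT1G80820), a cinnamoyl-CoA reductase of the lignin branch, was at 12.2, 15.3, 12.2 and 11.4 in chitin-treated *atl9* and at 2.78, 2.45, 1.44 and 2.91 in mock-treated *atl9*. *OPCL1* (AT1G20510), a ligase of jasmonate synthesis, was at 28.7, 41.9, 30.9 and 32.9 in chitin-treated *atl9* and at 19.3, 16.9, 15 and 17.3 in mock-treated *atl9*. *APS3* (AT4G14680), an ATP sulfurylase of sulfate assimilation, varied more, at 25.7, 65.4, 38.6 and 28.3 in chitin-treated *atl9* and 15.4, 9.27, 10.5 and 13.3 in mock-treated *atl9*. The subtilase gene *SBT3.3*, known from immune priming, rose by 1.17 ± 0.18 (SE). Of 23 genes listed for salicylic acid and immune regulation 3 were tested, and 2 rose (66.7%, beside 7.57% of all probe sets). The glutaredoxin gene *GRX480* (AT1G28480) was at 31.2, 45.4, 37.4 and 36.2 in chitin-treated *atl9* and at 17.7, 11.8, 11.7 and 12 in mock-treated *atl9*, and *SAG101*, a partner of EDS1, rose by 0.92 ± 0.16 (SE). *SGT1A* had 0.52 and missed the threshold (adjusted p = 0.0525).

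Of 23 tested expansin and xyloglucan endotransglucosylase genes 2 rose (8.7%, near the 7.57% of all probe sets) and 0 fell, with a median of 0.11. *XTH18* (AT4G30280) was at 21.1, 43.2, 34.5 and 27.1 in chitin-treated *atl9* and at 9.48, 6.02, 6.23 and 8.68 in mock-treated *atl9*, and *EXLA3* (AT3G45960), an expansin-like gene, was at 1.74, 1.75, 1.61 and 1.22 in chitin-treated *atl9* and at 0.498, 0.602, 0.379 and 0.597 in mock-treated *atl9*. Of 7 tested cellulose synthase-like genes, a family picked after its values were seen, 2 rose (28.6%, beside 7.57% of all probe sets). The median change of these 7 was -0.12. *CSLC04* (AT3G28180), which makes the backbone of xyloglucan, was at 28.6, 35.3, 30.6 and 29.7 in chitin-treated *atl9* and at 14.3, 11.1, 10.8 and 13.9 in mock-treated *atl9*, and *CSLD2* rose by 0.66 ± 0.15 (SE). The other 5 were not called. Among growth regulators picked after their values were seen, *SIM* (AT5G04470), an inhibitor of cyclin-dependent kinases in trichomes, was at 1.18, 1.28, 1.48 and 1.34 in chitin-treated *atl9* and at 2.61, 2.11, 3.23 and 3.12 in mock-treated *atl9*. *WAG2* (AT3G14370), a kinase that acts on auxin transport, was at 0.555, 0.966, 0.874 and 1.03 in chitin-treated *atl9* and at 1.64, 1.97, 1.99 and 1.38 in mock-treated *atl9*. Both had separate groups and fell by 1.05 and 1.05 on the log2 scale, while *ARL* (AT2G44080), a promoter of organ growth, rose by 1.23 ± 0.22 (SE). Of 7 tested histone genes 0 rose and 2 fell (28.6%, beside 2.99% of all probe sets), with a median of -0.31 and changes up to 0.64. *HTB1* and *HTB11* for histone H2B fell by 0.5 and 0.44 on the log2 scale. Both calls were lost without single *atl9* arrays (adjusted p up to 0.106 and 0.0755), chitin replicates 1, 2 or 3 or mock replicates 1, 2 or 4 for *HTB1*, and chitin replicates 1 or 3 or mock replicates 2 or 4 for *HTB11*.

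**Figure D3:**
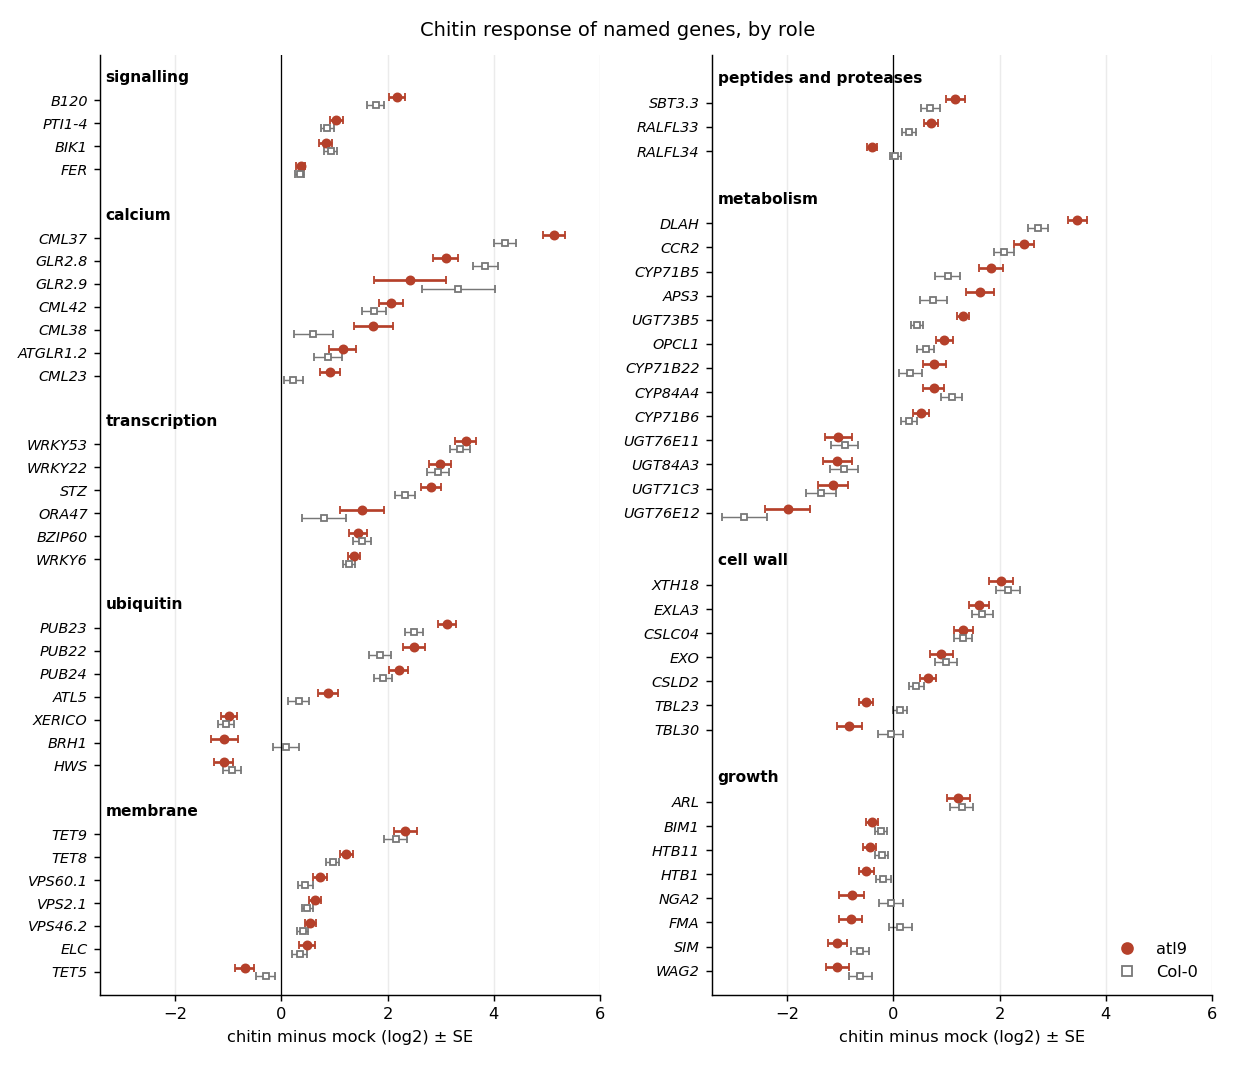
Log2 difference of chitin-treated minus mock-treated seedlings for named genes by role, in *atl9* (filled circles) and Col-0 (open squares), with limma's SE as bars. All genes shown passed the threshold in *atl9*, and most were picked after their values were seen. The changes in *atl9* run from *CML37* at 5.13 to *UGT76E12* at -1.98, and *UGT73B5* is the 1 gene shown whose response was called different between the lines.

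In other families no member was called, beside 7.57% that rose and 2.99% that fell over all probe sets, and lists of this size are too short to read a low share from a count of 0. None of 7 tested photosynthesis genes, 11 glutathione S-transferase genes, 8 tubulin and actin genes, 5 class III peroxidase genes, 5 genes of phenylpropanoids and flavonoids, 5 syntaxin and exocyst genes, 6 early auxin genes, 4 root marker genes and 4 reference genes was called in *atl9*. Their median changes were 0.18, -0.01, -0.11, 0.10, -0.16, 0.02, 0.03, 0.02 and -0.01. None of the 3 pectin-modifying, 2 abscisic acid and 2 ethylene genes tested was called. Further families were picked after their values were seen, and their shares stand beside the same 7.57% and 2.99% of all probe sets. Of 9 IQ-domain genes, which encode calmodulin-binding proteins, *IQD22* rose (11.1%) by 0.84 ± 0.19 (SE) and *IQD24* fell (11.1%) by 0.98 on the log2 scale. Of 20 tested serine carboxypeptidase-like genes *scpl20* and *scpl31* rose (10.0%) by 0.43 and 1.04. Of 14 *bZIP* genes *bZIP52* rose by 0.56 beside *BZIP60* (14.3%). Of 20 trichome birefringence-like genes *TBL23* and *TBL30* fell (10.0%) by 0.51 and 0.82 on the log2 scale. These 5 weaker calls, like those of the growth genes *BIM1*, *FMA* and *NGA2* that are plotted by role, were lost when any of 4 to 13 single arrays was left out (adjusted p up to 0.141). For *TBL23* these were chitin and mock replicates 1 and 2 of *atl9*, for *scpl31* chitin replicates 2 and 4 and mock replicates 1, 3 and 4, and for *bZIP52* chitin replicates 2 and 4 and mock replicates 2, 3 and 4. Of 5 tested jasmonate genes *ORA47* was the 1 that was called. *STZ* was the 1 tested member of the list for NADPH oxidases and reactive oxygen. *AT1G07160* was the 1 tested member of the list for the MAP kinase cascade. Membership of that list does not show that *AT1G07160* encodes a MAP kinase.

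Brightly read genes changed as well. *TET8* and *STZ* belong to the 5 rises of highest signal, together with *SRC2* (AT1G09070), *AT4G27280* and *AT5G35735*. *SRC2*, which encodes a C2-domain protein, was at 95.7, 116, 103 and 113 in chitin-treated *atl9* and at 76, 73.5, 71.8 and 73 in mock-treated *atl9*, and a difference of 0.54 ± 0.11 (SE) was called with groups apart. *AT4G27280* was at 88.5, 118, 105 and 119 in chitin-treated *atl9* and at 18, 10.1, 12 and 17 in mock-treated *atl9*, and *AT5G35735* was at 78.2, 95.1, 86.1 and 92.5 in chitin-treated *atl9* and at 33.9, 30.5, 32.1 and 37.7 in mock-treated *atl9*. The 5 falls of highest signal were *AT1G64190*, *AT2G37750*, *AT5G09620*, *AT2G29670* and *AT5G11090*, by 0.43, 0.8, 0.61, 0.49 and 0.95 on the log2 scale. *AT5G11090* was at 5.78, 8.76, 7.72 and 6.43 in chitin-treated *atl9* and at 16.7, 13, 12.8 and 12.5 in mock-treated *atl9*. The call of *AT2G37750* was lost without chitin replicate 1 or mock replicate 2 or 4 of *atl9* (adjusted p up to 0.0782), and that of *AT1G64190* without chitin replicate 1, 3 or 4 or mock replicate 2, 3 or 4 (adjusted p up to 0.0628). That of *AT2G29670* was lost without any *atl9* array except chitin replicate 1, and without Col-0 chitin replicate 2 or 4 or Col-0 mock replicate 3 (adjusted p up to 0.115).

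The scan days of the arrays were mixed over both treatments of *atl9*. Chitin replicates 1 to 4 were scanned on days 2, 4, 4 and 3 of the series and mock replicates 1 to 4 on days 4, 2, 3 and 4. With the scan day as a block, 1284 probe sets rose and 542 fell. On day 4 alone, with 2 chitin and 2 mock arrays of *atl9*, 690 rose and 114 fell, and on the earlier days alone 932 rose and 320 fell. *CML37* differed by 4.93 on day 4 and by 5.32 on the earlier days, *WRKY53* by 3.13 and 3.8, *PUB23* by 2.9 and 3.32, and *XERICO* by -0.94 and -1.02. Of 104 called named genes 53, among them *XERICO*, lost their call on day 4 alone, and 38 lost it on the earlier days alone. The fluidics module was not mixed, since the chitin arrays of *atl9* ran on modules 2 and 4 and the mock arrays on modules 1 and 3, so module and treatment cannot be told apart.

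**Figure D4:**
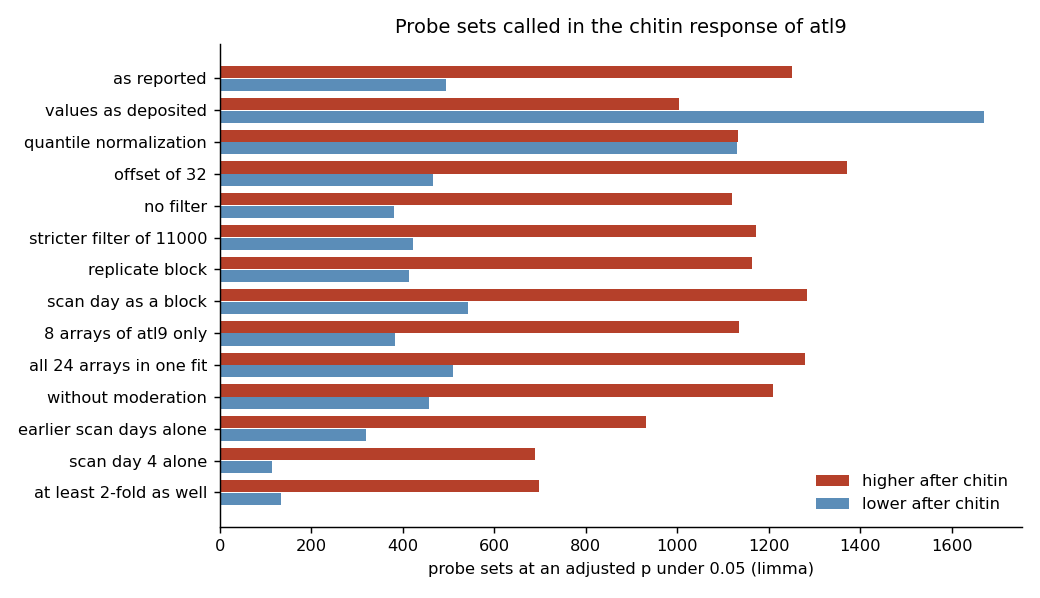
Probe sets higher (upper bar) or lower (lower bar) after chitin in *atl9* at an adjusted p under 0.05 (limma), as reported and under each alternative. Rises numbered between 690 and 1370, while falls numbered between 114 and 1671 and were highest with signals as deposited.

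Most of the rises of *atl9* were also called in the wild type. In the fit of 16 arrays Col-0 had 1887 rises and 921 falls. Of the 1251 rises of *atl9*, 910 were also called in Col-0, which is 72.7% of the *atl9* rises and 48.2% of the Col-0 rises. Of the 494 falls, 248 were shared, 50.2% of those of *atl9* and 26.9% of those of Col-0. The median change of the *atl9* rises was 1.09 in *atl9* and 0.89 in Col-0, and that of the *atl9* falls was -0.79 in *atl9* and -0.53 in Col-0. These lists were chosen on their change in *atl9*, so that the smaller medians in Col-0 are a description only. Over all tested probe sets the changes of both lines correlated at 0.66 (Pearson's r across probe sets, which are not independent replicates). Few of the calls that lacked a call of the same direction in the other line passed the test of the difference. Such a miss does not show equal responses. Of the 341 *atl9* rises not called as rises in Col-0, 281 were positive in Col-0 and 2 were called falls there. A different response by the test of the difference was called for 12 of the 341. Of the 246 falls not called as falls in Col-0, 177 were negative there, 4 were called rises there and 9 differed. The 977 Col-0 rises not called as rises in *atl9* include the same 4, and 40 of the 977 differed.

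The difference of the responses itself, *atl9* minus Col-0, was called for 75 probe sets, 28 positive (0.169%) and 47 negative (0.284%), of which 38 match 1 gene. At an unadjusted p under 0.05 there were 2367. The 47 negative differences were for 36 probe sets a rise in Col-0 without a call in *atl9*, for 5 a fall in *atl9* without a call in Col-0, for 4 a fall in *atl9* and a rise in Col-0, and for 2 a rise in both. The 28 positive differences were for 12 a fall in Col-0 without a call in *atl9*, for 11 a rise in *atl9* without a call in Col-0, for 4 a rise in both and for 1 a rise in *atl9* and a fall in Col-0. These counts depended on single arrays. With 1 array left out they ran from 2 to 111 positive and from 4 to 104 negative, the fewest without replicate 4 of chitin-treated Col-0. Leaving out replicate 1, 2, 3 or 4 of chitin-treated Col-0 gave 111, 10, 5 or 2 positive and 68, 18, 4 or 4 negative differences, and leaving out replicate 3 of mock-treated Col-0 gave 4 and 8. Leaving out replicate 2, 3 or 4 of chitin-treated *atl9* gave 37, 5 or 13 positive and 104, 8 or 30 negative differences. Leaving out replicate 1, 2, 3 or 4 of mock-treated *atl9* gave 6, 11, 18 or 7 positive and 15, 18, 37 or 15 negative differences. On scan day 4 alone, as on the earlier days alone, none was called.

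For most of the largest negative differences the change passed the test in Col-0 and not in *atl9*. *AT5G03350* was at 7.49, 2.45, 3.15 and 7.03 in chitin-treated *atl9* and at 12.1, 10, 3.05 and 4.01 in mock-treated *atl9*, while Col-0 had 20.1, 29.9, 26 and 34.9 after chitin and 5.27, 4.8, 3.62 and 3.55 in mock. The log2 change was -0.47 ± 0.43 (SE) in *atl9* and 2.68 ± 0.43 (SE) in Col-0, a difference of -3.14 ± 0.61 (SE) (limma, adjusted p = 0.0404), which missed the threshold with scan day as a block. All chitin arrays of Col-0 were above every other array of both lines. *AT2G43620* was at 14.4, 6.57, 7.68 and 12 in chitin-treated *atl9* and at 16, 12, 9.13 and 13.3 in mock-treated *atl9*, against 27.9, 23.8, 18.5 and 29.6 in chitin-treated and 9.18, 11.7, 7.87 and 7.92 in mock-treated Col-0. *AT4G32460* was at 4.35, 6.94, 6.95 and 7.69 in chitin-treated *atl9* and at 9.42, 8.05, 8.31 and 7.9 in mock-treated *atl9*, against 18.9, 17.1, 23.2 and 23.6 in chitin-treated and 9.72, 10.6, 6.38 and 7.68 in mock-treated Col-0. In these genes too the chitin arrays of Col-0 stood apart from the rest. *AT1G56680* and *AT4G18970* had changes of -0.84 and -0.68 in *atl9* and of 1.41 and 1.24 in Col-0. *AT5G12050* fell in *atl9*, by 1.01 on the log2 scale, against a change of 0.61 in Col-0 that was not called. The peroxidase gene *AT5G64120* was at 27.9, 23.8, 22.7 and 24.8 in chitin-treated *atl9* and at 18.1, 19.8, 18.2 and 16.1 in mock-treated *atl9*, against 55.3, 46.1, 42.9 and 59.3 in chitin-treated and 16.7, 22.7, 14.9 and 15.8 in mock-treated Col-0, a difference of -1.09 ± 0.2 (SE) (adjusted p = 0.034).

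Among the positive differences, *AT2G32140* rose in both lines, at 6.27, 9.52, 8.56 and 6.76 in chitin-treated *atl9* and 0.863, 0.828, 0.994 and 0.904 in mock-treated *atl9*, against 3.26, 3.07, 3.53 and 3.07 in chitin-treated and 0.682, 1.31, 0.952 and 0.977 in mock-treated Col-0, and the rise of 3.1 ± 0.17 (SE) in *atl9* exceeded that of 1.76 ± 0.17 (SE) in Col-0 (limma, adjusted p of the difference = 0.0326). *AT2G22760* was at 1.02, 3.03, 2.23 and 1.52 in chitin-treated *atl9* and at 0.529, 0.438, 0.477 and 0.333 in mock-treated *atl9*, against 0.618, 0.549, 0.423 and 0.509 in chitin-treated and 0.373, 0.463, 0.514 and 0.478 in mock-treated Col-0. *AT1G32970* was at 1.34, 3, 2.34 and 1.56 in chitin-treated *atl9* and at 0.454, 0.413, 0.634 and 0.443 in mock-treated *atl9*, against 0.407, 0.434, 0.859 and 0.649 in chitin-treated and 0.608, 0.655, 0.693 and 1.04 in mock-treated Col-0. For both genes the chitin arrays of *atl9* lay above all 12 other arrays. *AT5G44350* and *AT5G54170* rose in *atl9* by 1.08 ± 0.19 (SE) and 0.68 ± 0.15 (SE), against changes of -0.47 and -0.45 in Col-0, of which the second was a called fall. The serine carboxypeptidase-like gene *scpl30* had the largest positive difference, 4.73 ± 0.94 (SE). It fell in Col-0 by 4.44 ± 0.66 (SE) on the log2 scale, at 0.859, 0.2, 0.102 and 0.131 in chitin-treated and 3.82, 2.65, 15.4 and 3.3 in mock-treated Col-0, against 4.22, 11.5, 11.5 and 10.5 in chitin-treated and 4.19, 9.19, 14.5 and 4.78 in mock-treated *atl9*. *UGT73B5* rose by 1.31 ± 0.11 (SE) in *atl9* and by 0.45 ± 0.11 (SE) in Col-0, and the difference of 0.86 ± 0.16 (SE) was called (adjusted p = 0.0382). With scan day as a block 8 of the 14 named differences, positive and negative, lost their call (adjusted p up to 0.08), namely *AT5G03350*, *AT2G43620*, *AT4G18970*, *AT5G12050*, *AT5G64120*, *AT2G22760*, *UGT73B5* and *scpl30*. With the replicate number as a block 10 lost their call (adjusted p up to 0.0898), and without the filter on dim probe sets all 14 did (adjusted p up to 0.102). Without moderation 8 lost it. All 14 also lost their call without Col-0 chitin replicate 4, and 13 of them without Col-0 mock replicate 3, while none did without Col-0 chitin replicate 1 or *atl9* chitin replicate 2. The number of single arrays whose loss ended a call ran from 2 of 16 for *AT4G32460* (Col-0 chitin replicates 3 and 4, adjusted p up to 0.0593) to 14 of 16 for *AT5G12050* (adjusted p up to 0.11), and the sign of all 14 stayed the same with any array left out.

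**Figure D5:**
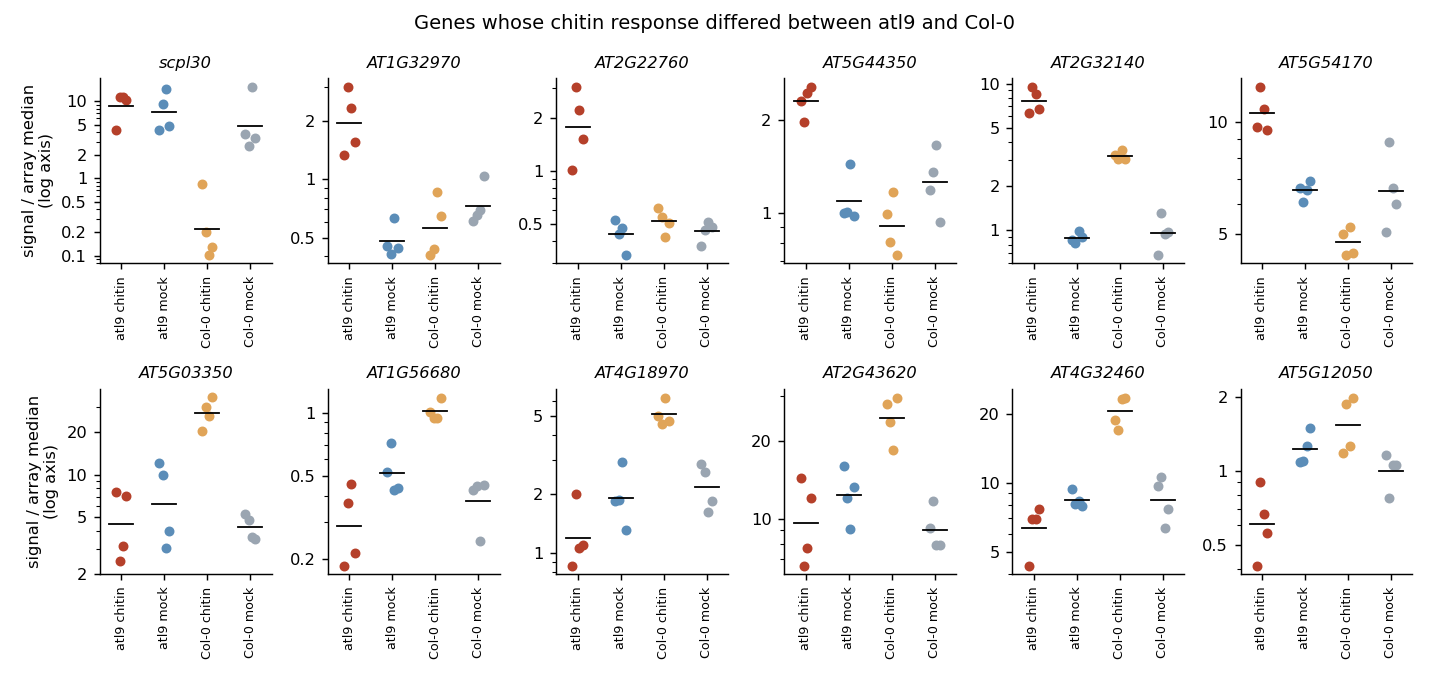
Signal divided by the array median (log axis) for the 12 genes with the largest called differences between the responses of *atl9* and Col-0, positive differences above and negative ones below. Each dot is 1 array, the bar is the geometric mean of 4, and groups run from chitin-treated *atl9* over mock-treated *atl9* and chitin-treated Col-0 to mock-treated Col-0. In the lower row, except for *AT5G12050*, the chitin arrays of Col-0 lie above all others, as for *AT5G03350* at 20.1 to 34.9.

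Against rre2, the other mutant, no difference of the chitin responses was called (0 probe sets, 0%), by limma with all 24 arrays or by the model without moderation, and the smallest adjusted p was 0.20. At an unadjusted p under 0.05 there were 1248. The responses of these lines share no array, but they share 1 estimate of the spread of each probe set. In the fit of 24 arrays *atl9* had 1279 rises and rre2 had 1413, with 1037 in common, 81.1% of the *atl9* rises and 73.4% of the rre2 rises. Of the falls, 278 were in common, 54.4% of the 511 of *atl9* and 38% of the 732 of rre2. The *atl9* rises of the fit of 16 arrays had a median of 1.09 in *atl9* and of 1.15 in rre2, and the falls one of -0.79 in *atl9* and of -0.64 in rre2. The missed threshold does not show that the responses were alike, since the 95% interval of a difference reached 0.53 to either side for the median probe set. For *AT5G03350* the change was -0.47 in *atl9* and 0.05 in rre2, with an interval of the difference from -1.91 to 0.87. For *AT2G32140* it was 3.1 in *atl9* and 3.28 in rre2, with an interval from -0.69 to 0.32. For *AT1G56680*, at -0.84 in *atl9* and 0.49 in rre2, the interval taken for this gene alone ran from -2.29 to -0.38 and did not span 0, while its p adjusted over all probe sets missed the threshold.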

How the data were processed

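RNA of whole seedlings was hybridized to ATH1 arrays, 1 biological replicate an array per the labels. The authors processed the images with Affymetrix software, and the deposited values are linear signal intensities scaled to a target intensity of 500. Instrument text files deposited with the arrays gave the order of scan days and the fluidics modules. Intensities were divided by the median of each array's non-control probe sets and log2-transformed without offset, and the dimmer probe sets, ranked by their mean on the 24 arrays, were left out. Group means of the 16 arrays of *atl9* and Col-0 were fitted with limma 3.58.1 in R 4.3.3 (lmFit, eBayes), and all 24 arrays for rre2. P-values were adjusted by Benjamini-Hochberg over all probe sets, with a call at 0.05. The script was tested on simulated data. The number of arrays limits the precision.

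The members, gene lists and tests were chosen with earlier results of these data known. Named genes were the 10 largest rises and falls with separate groups, the 5 of highest signal in each direction, up to 4 per gene list by smallest p-value and the largest called differences from Col-0. Genes from other families are named as picked after their values were seen. Arrays were not paired by replicate number in the main fit. Scaling, an offset, filters, blocks, scan days, the arrays fitted and single arrays left out were varied. No gene sequences were used here.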

Additional observations from a re-analysis of the deposited data

Results flagged for a closer look

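In 344 groups of 4 arrays of named genes, 17 held an array far from its 3 neighbours (Dixon's test). Chance flags about 1 in 20 groups. Among chitin-treated *atl9* arrays the distant ones were *AT2G36090* at 0.225, *B120* at 22.3, *GSTU20* at 3.43 and *UGT84A3* at 1.17 on replicate 2, *AT3G50300* at 0.104, *AT4G14090* at 2.43, *HWS* at 0.348, *SGT1A* at 14.4 and *scpl30* at 4.22 on replicate 1, and *BRH1* at 4.39, *GSTU21* at 0.114 and *SEC15B* at 6.15 on replicate 4, all as signal over the array median. Among mock-treated *atl9* arrays they were *AT5G11090* at 16.7, *AT5G61590* at 7.94 and *GRX480* at 17.7 on replicate 1, *ELC* at 6.18 on replicate 2 and *AT5G44350* at 1.44 on replicate 3.

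For 14 named genes the chitin response of *atl9* differed from that of Col-0 in limma's test of the difference. The difference, *atl9* minus Col-0 on the log2 scale, was positive for *scpl30* (4.73), *AT1G32970* (2.42), *AT2G22760* (1.84), *AT5G44350* (1.56), *AT2G32140* (1.34), *AT5G54170* (1.14) and *UGT73B5* (0.86). It was negative for *AT5G03350* (-3.14), *AT1G56680* (-2.26), *AT4G18970* (-1.92), *AT2G43620* (-1.80), *AT4G32460* (-1.69), *AT5G12050* (-1.62) and *AT5G64120* (-1.09).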

How the results depend on the processing

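The count of rises stayed within 1.5 times of 1251 under the alternatives run except on scan day 4 alone (690) and with a 2-fold minimum (699). Falls, 494 as reported, numbered 1671 with signals as deposited, 1130 after quantile normalization, 114 on day 4 alone, 320 on the earlier days alone and 133 with a 2-fold minimum. With 1 array left out rises ran from 1089 to 1298 and falls from 355 to 535. The positive differences from Col-0, 28 as reported, became 48 with signals as deposited, 47 with the offset, 5 without a filter, 65 with the stricter filter, 11 with scan day as a block, 18 without moderation and 0 on day 4 or the earlier days alone. The 47 negative ones became 82 with the offset, 6 without a filter, 119 with the stricter filter, 26 with scan day as a block and 0 on either set of days. With 1 array left out they ran from 2 to 111 and from 4 to 104. Against rre2, 1 positive difference was called without *atl9* chitin replicate 2 and 1 negative without rre2 chitin replicate 3, and with 1 array left out both ran from 0 to 1. The cause of these changes was not tested.

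With the replicate number as a block, 1164 probe sets rose and 413 fell, 10 differences from Col-0 were positive and 14 negative, and 1 difference from rre2 was positive. The deviations of arrays with the same number had a mean correlation of -0.138, with 0 of 4 pairs above 0.1. The arrays of each such pair were scanned on different days, and their correlations ran from -0.209 to -0.0909. Pairs of other numbers that were also scanned on different days had correlations from -0.176 to 0.14. Arrays of the same scan day had a mean correlation of 0.14, with 5 of 6 pairs above 0.1, against -0.0837 for arrays of other days, with 2 of 10 above 0.1. Of 104 called named genes 44 kept their call under every alternative, 0 reversed, and 24 of 68 that were not called passed under some alternative. Precision is limited by 4 arrays a group.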
